A study of Mus musculus with 12 samples.

Results

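Histone acetylation and methylation are written and removed by enzymes that include histone deacetylases (Hdac), acetyltransferases (Kat, Ep300, Crebbp), lysine methyltransferases (Setd, Mll, Ehmt, Suv39h, Suv420h), lysine demethylases (Kdm) and protein arginine methyltransferases (Prmt). Genes were taken by these symbols and kept where the transcript level reached 1 FPKM in at least 3 of 12 RNA-seq libraries of mouse pluripotent cells. The names matched 57 loci, and 54 of them passed, of 12320 named loci that passed the same limit. The 54 genes comprised 10 deacetylases, 5 acetyltransferases, 18 lysine methyltransferases, 14 demethylases and 7 arginine methyltransferases. FPKM is the number of fragments scaled to transcript length and library size, so it can be compared between genes as a level per length. Other acetyltransferases, demethylases and methyltransferases carry other symbols (Kat6b as Myst4, for example) and were counted apart.

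The study set the transition of embryonic stem cells (ESC) to epiblast-like cells (EpiLC) beside the loss of Sirt1, an NAD-dependent deacetylase, and the knockdown of Otx2, a homeodomain transcription factor of the primed state. All cells were labelled as C57 Bl/6J, and each of the 4 groups held 3 libraries of oligo-dT purified RNA. Wild-type ESC, Sirt1KO ESC and Sirt1KO Otx2KD ESC were kept without serum on gelatin in N2B27 with LIF and inhibitors used to hold the naive state. These were 1 uM of the MEK inhibitor PD0325901 and 3 uM of the GSK3b inhibitor CHIR99021. Wild-type EpiLC were made from such cells on fibronectin with 12 ng/ml Fgf2, 20 ng/ml Activin A and 1% KOSR for 48 h. The double-perturbed cells carry the Sirt1 knockout too, so Sirt1KO ESC are their nearest control. No group is labelled as a knockdown control or as an Otx2 knockdown in wild-type cells. Wording such as "after the Otx2 knockdown" therefore names the difference between these groups, and its cause was not tested. The labels used here do not say which part of Sirt1 was deleted, how Otx2 was knocked down, how many clones were used or whether libraries came from separate cultures, so the p-values measure only the spread between these libraries, which may be technical.

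Deacetylases and acetyltransferases set the acetyl-lysine level of histone tails, acetylation marks active promoters and enhancers, and class I deacetylases act inside the Sin3, NuRD, CoREST and NCoR complexes. Methylation is read by position: H3K4 methylation marks promoters and enhancers, H3K36 methylation gene bodies, and H3K9, H3K27 and H4K20 methylation silent chromatin, each with its own writers and erasers. Naive ESC are known for low DNA methylation and little H3K27 methylation at promoters, both of which are laid down as cells move to the primed state.

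Relative depth, read from the smallest steps of the FPKM values and set to 1 in wild-type ESC replicate 1, ran from 0.767 to 1.33 over the libraries. Sirt1 was at 25.8, 25.4 and 26.2 FPKM in wild-type ESC, at 32.0, 34.5 and 33.1 in EpiLC, at 15.3, 15.3 and 15.7 in Sirt1KO ESC and at 16.0, 15.6 and 15.0 in Sirt1KO Otx2KD ESC. Otx2 was at 7.60, 6.85 and 7.68 FPKM in wild-type ESC, at 96.3, 102 and 102 in EpiLC, at 34.2, 24.6 and 22.2 in Sirt1KO ESC and at 6.33, 6.27 and 5.61 in Sirt1KO Otx2KD ESC. Otx2 was lower in the knockdown libraries than in the other knockout libraries. Sirt1 was lower in both groups labelled as knockout than in wild-type ESC, by 0.70 on the log2 scale in each, but stayed at 15.0 to 16.0 FPKM there. The values cover the whole Sirt1 locus and the deleted part was not read apart, so they do not by themselves check the knockout label. Pou5f1, the gene of the pluripotency factor Oct4, lay between 592 and 670.1 FPKM in all 12. The 11 naive ESC markers found summed to 1300 to 1361 FPKM in wild-type ESC and 356 to 357 in EpiLC. They summed to 989 to 1134 in Sirt1KO ESC and 1322 to 1338 in Sirt1KO Otx2KD ESC. For 11 EpiLC markers, Otx2 among them, the sums were 81.0 to 87.5, 1049 to 1092, 245 to 353 and 75.6 to 81.1. In Sirt1KO against wild-type ESC, 3 naive markers rose and 8 fell, while 9 EpiLC markers rose and 2 fell. Of 17 fibroblast and feeder marker genes looked for, the summed level was 156 to 182 FPKM in wild-type ESC, 97.9 to 106 in EpiLC, 24.1 to 34.0 in Sirt1KO ESC and 300 to 306 in Sirt1KO Otx2KD ESC; Fap was at 0 in all Sirt1KO ESC libraries and no other marker of that list was at 0 throughout a group. Trophoblast markers summed to 87.1 to 91.6, 22.5 to 25.6, 62.2 to 65.1 and 66.5 to 67.7 FPKM in the same order of groups, with Tpbpa at 0 in all 12 libraries. Most of that sum was Tfap2c, at means of 80.1, 5.88, 27.2 and 55.2 FPKM. Of the 5 tested trophoblast markers, 2 rose and 3 fell in EpiLC and 4 and 1 in Sirt1KO ESC, both against wild-type ESC. In Sirt1KO Otx2KD ESC the counts were 1 and 4 against Sirt1KO ESC and 1 and 2 against wild-type ESC. In EpiLC against Sirt1KO ESC, 0 rose and 4 fell. Primitive endoderm markers summed to 8.67 to 9.82, 14.5 to 15.3, 10.5 to 11.6 and 14.6 to 16.4 FPKM, with Afp at 0 in both knockout groups. The ranges of the fibroblast, trophoblast and primitive endoderm sums did not overlap in any comparison given here. The part of any of these markers in the results was not tested. The level of a gene in such bulk RNA does not tell fewer cells of a type apart from less RNA per cell.

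The following 4 genes were at an end of the ranking of the 54 in at least 1 of the 5 comparisons. They are Setd7, whose product methylates H3K4 once and also non-histone proteins, Kdm3a, an eraser of H3K9 mono- and dimethylation, Prmt7, a monomethylating arginine methyltransferase, and Prmt8, a membrane-bound arginine methyltransferase known mainly from neurons. The deposited loci lie, on mm9, at chr3:51319239-51371038 (Setd7), chr6:71538965-71582899 (Kdm3a), chr8:108734928-108861888 (Prmt7) and chr6:127639026-127719177 (Prmt8). Their RefSeq promoter windows run from 250 bases before to 50 after the annotated start furthest upstream on GRCm38.p6. They are printed to show how these windows of the most changed genes differ in CpG content, with CpG dinucleotides in capitals. Which start is used in these cells was not tested. The windows are chr3:51560774-51561073 on the minus strand for Setd7, chr6:71632868-71633167 on the minus strand for Kdm3a, chr8:106210804-106211103 on the plus strand for Prmt7 and chr6:127769110-127769409 on the minus strand for Prmt8.
Setd7: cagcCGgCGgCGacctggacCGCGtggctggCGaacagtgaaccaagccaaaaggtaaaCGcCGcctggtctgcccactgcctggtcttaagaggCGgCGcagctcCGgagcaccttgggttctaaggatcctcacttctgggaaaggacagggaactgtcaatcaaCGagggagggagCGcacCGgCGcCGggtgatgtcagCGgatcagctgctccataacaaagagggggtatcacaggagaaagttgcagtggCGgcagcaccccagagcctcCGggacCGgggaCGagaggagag
Kdm3a: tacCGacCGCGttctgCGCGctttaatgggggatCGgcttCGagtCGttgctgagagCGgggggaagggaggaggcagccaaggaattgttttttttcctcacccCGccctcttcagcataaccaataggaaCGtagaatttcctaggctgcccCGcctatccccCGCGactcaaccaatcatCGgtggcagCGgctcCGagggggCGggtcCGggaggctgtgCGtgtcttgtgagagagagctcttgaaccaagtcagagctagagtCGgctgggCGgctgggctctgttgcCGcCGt
Prmt7: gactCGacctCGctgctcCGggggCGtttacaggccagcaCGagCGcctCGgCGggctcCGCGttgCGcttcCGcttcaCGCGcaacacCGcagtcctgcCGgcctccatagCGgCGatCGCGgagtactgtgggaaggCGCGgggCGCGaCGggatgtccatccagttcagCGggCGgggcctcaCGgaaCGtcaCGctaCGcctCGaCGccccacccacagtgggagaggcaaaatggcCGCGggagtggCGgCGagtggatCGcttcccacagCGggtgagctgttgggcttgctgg
Prmt8: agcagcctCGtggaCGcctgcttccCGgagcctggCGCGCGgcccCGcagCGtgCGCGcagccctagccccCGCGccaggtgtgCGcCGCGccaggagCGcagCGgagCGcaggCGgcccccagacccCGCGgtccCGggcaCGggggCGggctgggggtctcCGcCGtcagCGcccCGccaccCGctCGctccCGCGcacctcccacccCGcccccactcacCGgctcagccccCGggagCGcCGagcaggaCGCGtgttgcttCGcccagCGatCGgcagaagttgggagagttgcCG

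The Prmt8 window held 43 CpG, the Prmt7 window 39, the Kdm3a window 24 and the Setd7 window 21. Windows with at least as many CpG make up 2.49%, 4.28%, 20% and 25% of all 27025 RefSeq windows of 300 bases. Of these 4 windows, the 2 with the most CpG belong to genes whose transcripts differ in direction: in EpiLC and Sirt1KO ESC Prmt8 was lower and Prmt7 higher than in wild-type ESC. Windows were matched for 45 of the 54 genes, with a median of 22 CpG against 7 over all windows. All windows include genes that did not pass the level limit, which the 54 did. The windows of the tested loci alone were not counted, so this gap is not shown to be particular to the enzymes. The letters TAATCC, the core bound by bicoid-type homeodomains such as that of Otx2, were searched on both strands. They occurred in 3 of the 45 windows (6.67%) and in 7.15% of all windows, and in none of those printed above. A match is a description of letters and no site, and no match covers only this window.

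Each comparison was fitted on log2(FPKM + 1) over all 12320 loci with limma, and a gene is called changed where its Benjamini-Hochberg adjusted p over all loci was under 0.05. Fold changes on this scale understate the change of genes at low levels. The share of called loci was high in the whole transcriptome, so a call by itself does not set the enzymes apart.

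In EpiLC against wild-type ESC, 27 of the 54 enzyme genes rose and 13 fell. Of all loci, 35.8% rose and 38.8% fell, 74.6% together, against 74.1% of the enzymes, so the total is at the background while the split lies to the higher side. The median log2 difference was 0.15 over the enzymes and -0.02 over all loci. Setd7, Prmt7 and Ehmt1 rose most, and Prmt8, Kdm3a and Kdm6b fell most. Of the 15 tested fibroblast and feeder markers, 2 rose and 8 fell in this comparison.

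In Sirt1KO against wild-type ESC, 19 rose and 17 fell, and both shares lie near those of all loci (32.4% higher, 32.7% lower, 65% in either direction). The median log2 difference was -0.01 over the enzymes and 0.01 over all loci. Prmt7, Hdac7 and Setd5 rose most, and Prmt8, Hdac6 and Mll3 fell most. Of the 15 fibroblast and feeder markers, 0 rose and 14 fell.

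With Otx2 knocked down in the Sirt1KO background, 25 rose and 17 fell against Sirt1KO ESC. Here 77.8% of the enzymes were called against 62.6% of all loci, of which 31.1% were higher and 31.5% lower. Calls of at least 0.5 in size on the log2 scale made up 24.1% of the enzymes and 21.9% of all loci, so the excess lies mainly in smaller changes. The median log2 difference was 0.11 over the enzymes and -0.01 over all loci. Prmt8, Kdm3a and Kdm6b rose most, and Prmt7, Hdac4 and Setd4 fell most. Here 14 of the 15 fibroblast and feeder markers rose and 0 fell.

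Sirt1KO Otx2KD against wild-type ESC gave 27 that rose and 13 that fell. Called were 74.1% of the enzymes, against 53.9% of all loci (27.1% higher and 26.8% lower). Calls of at least 0.5 in size on the log2 scale made up 13% of the enzymes and 16.9% of all loci, so the excess lies in smaller changes. The median log2 difference was 0.15 over the enzymes and -0.000952 over all loci. Kdm3a, Hdac7 and Setd5 rose most, and Prmt8, Suv39h1 and Hdac6 fell most. Of the 15 markers, 13 rose and 1 fell.

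EpiLC against Sirt1KO ESC gave 28 that rose and 9 that fell, with 69.1% of all loci called, 34% higher and 35.1% lower. The median log2 difference was 0.14 over the enzymes and -0.01 over all loci. Setd7, Kdm4c and Mll3 rose most, and Kdm3a, Hdac7 and Hdac1 fell most. The same markers gave 14 that rose and 1 that fell. The 5 comparisons share libraries, so their values are given side by side and no overlap between them is read.

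**Figure D1:**
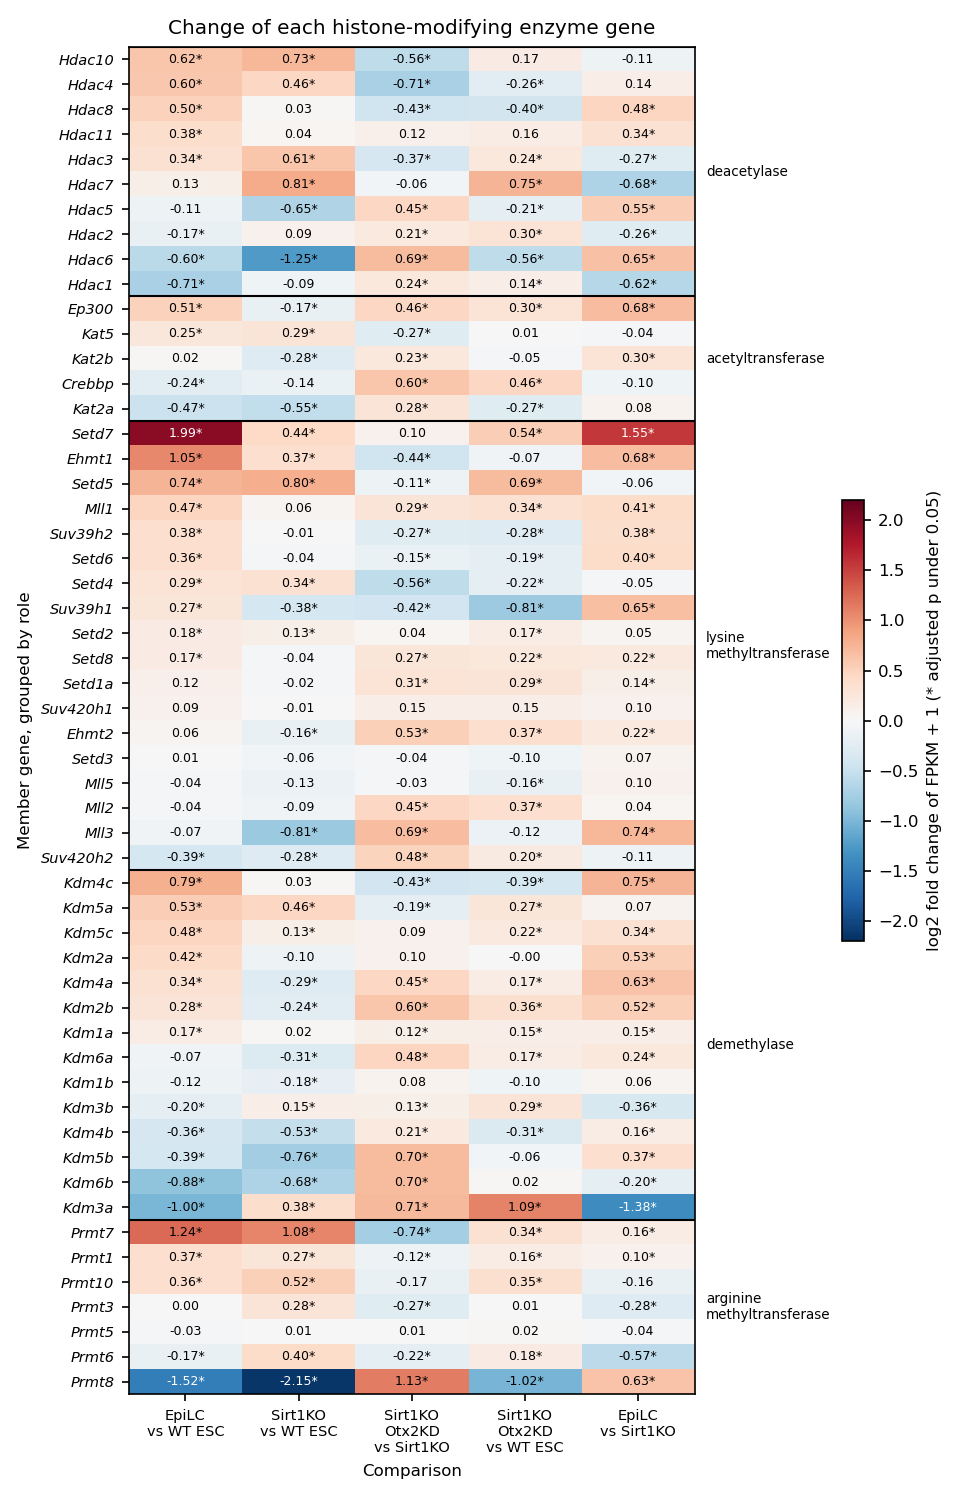
Log2 difference of FPKM + 1 (colour and printed value) for the 54 enzyme genes (rows, grouped by role) in the 5 comparisons (columns), with an asterisk where the limma adjusted p was under 0.05. Setd7 at 1.99 in EpiLC is the largest positive value and Prmt8 at -2.15 in Sirt1KO ESC the most negative.

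Of the 10 deacetylases, 5 rose and 3 fell in EpiLC, 4 and 2 in Sirt1KO ESC, and 4 and 4 in each of the other 3 comparisons, with medians of 0.24, 0.06, 0.03, 0.15 and 0.01 on the log2 scale in the order given above. Called were 80%, 60%, 80%, 80% and 80% of the deacetylases, against 74.6%, 65%, 62.6%, 53.9% and 69.1% of all loci. The class I genes Hdac2 and Hdac1 had the highest levels. Hdac2, a catalytic subunit of the Sin3, NuRD and CoREST complexes, was at 126, 129 and 126 FPKM in wild-type ESC, at 113, 110.2 and 115 in EpiLC, at 127, 141 and 137 in Sirt1KO ESC and at 158, 153 and 157 in Sirt1KO Otx2KD ESC. Its EpiLC libraries were the lowest and its Sirt1KO Otx2KD libraries the highest, without overlap with the others, while wild-type and Sirt1KO ESC overlapped. Hdac2 differed by -0.17 ± 0.04 (log2, ± SE; adjusted p 0.00108, limma) in EpiLC and by 0.30 ± 0.04 (adjusted p 1.55e-05) in Sirt1KO Otx2KD ESC, both against wild-type ESC. Under quantile normalization the first difference was -0.06 with an adjusted p of 0.122 in limma.

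Hdac1, its paralog in the same complexes, was at 60.2, 62.3 and 59.8 FPKM in wild-type ESC, at 36.3, 36.4 and 37.5 in EpiLC, at 54.9, 56.6 and 59.5 in Sirt1KO ESC and at 64.1, 68.9 and 68.9 in Sirt1KO Otx2KD ESC. EpiLC stood well below the other groups, and no groups overlapped. Hdac1 fell in EpiLC, by 0.71 on the log2 scale (SE 0.04, adjusted p 1.76e-09, limma). In Sirt1KO ESC its difference from wild-type ESC was -0.09 ± 0.04 and did not pass the test (adjusted p 0.0677, limma).

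Hdac3, the catalytic subunit of the NCoR and SMRT complexes, was at 26.0, 28.1 and 28.4 FPKM in wild-type ESC, at 36.7, 35.8 and 33.0 in EpiLC, at 41.1, 42.6 and 43.8 in Sirt1KO ESC and at 31.8, 33.6 and 32.5 in Sirt1KO Otx2KD ESC. Wild-type ESC were lowest and Sirt1KO ESC highest, and the EpiLC and Sirt1KO Otx2KD libraries overlapped between them. Hdac3 rose in EpiLC (0.34 ± 0.05) and in Sirt1KO ESC (0.61 ± 0.05), and was 0.37 lower in Sirt1KO Otx2KD than in Sirt1KO ESC. Hdac8, the X-linked class I member that is not part of those complexes, was at 3.20 ± 0.490 FPKM in wild-type ESC (mean ± SD, n = 3, as below), rose to 4.93 ± 0.244 in EpiLC (0.50 ± 0.11) and was lowest in Sirt1KO Otx2KD ESC at 2.16 ± 0.121.

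Class IIa deacetylases, which shuttle between cytoplasm and nucleus and act through Mef2 factors, moved in different directions. Hdac4 was at 3.27, 3.16 and 3.27 FPKM in wild-type ESC, at 5.59, 5.57 and 5.06 in EpiLC, at 4.92, 4.60 and 4.94 in Sirt1KO ESC and at 2.72, 2.57 and 2.35 in Sirt1KO Otx2KD ESC. It was low in Sirt1KO Otx2KD and wild-type ESC and high in Sirt1KO ESC and EpiLC, with no overlap between groups. Its difference between Sirt1KO Otx2KD and Sirt1KO ESC was -0.71 ± 0.07 (adjusted p 9.59e-07, limma).

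Hdac5 was lowest in Sirt1KO ESC, at 8.63 ± 1.01 FPKM, against 14.1 ± 0.823 in wild-type ESC, 13.1 ± 0.682 in EpiLC and 12.1 ± 0.313 in Sirt1KO Otx2KD ESC. The difference between Sirt1KO and wild-type ESC was -0.65 ± 0.07, and with the median of its chromosome 11 removed it was -0.16 with an adjusted p of 0.0503 in limma. Hdac7 was at 1.11, 1.05 and 1.48 FPKM in wild-type ESC, at 1.36, 1.38 and 1.52 in EpiLC, at 3.26, 2.86 and 2.51 in Sirt1KO ESC and at 2.54, 2.91 and 2.66 in Sirt1KO Otx2KD ESC. It was low in both wild-type states and higher in both Sirt1KO groups, without overlap between them. Hdac7 rose by 0.81 ± 0.10 in Sirt1KO ESC (adjusted p 5.97e-06, limma) and by 0.75 ± 0.10 in Sirt1KO Otx2KD ESC.

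The class IIb gene Hdac6, on chromosome X, encodes a mostly cytoplasmic tubulin deacetylase. It was at 49.7, 50.4 and 52.9 FPKM in wild-type ESC, at 33.6, 34.3 and 32.1 in EpiLC, at 20.1, 21.7 and 20.8 in Sirt1KO ESC and at 33.9, 34.1 and 34.6 in Sirt1KO Otx2KD ESC. Wild-type ESC were highest and Sirt1KO ESC lowest, and EpiLC and Sirt1KO Otx2KD libraries overlapped between them. Hdac6 fell by 1.25 in Sirt1KO ESC (SE 0.04, adjusted p 1.84e-11, limma), fell by 0.60 in EpiLC, and was 0.69 ± 0.04 higher on the log2 scale in Sirt1KO Otx2KD than in Sirt1KO ESC. Hdac10, a polyamine deacetylase, stayed near the limit of the filter, at 1.49 ± 0.235 FPKM in wild-type ESC, 2.82 ± 0.401 in EpiLC, 3.12 ± 0.315 in Sirt1KO ESC and 1.80 ± 0.236 in Sirt1KO Otx2KD ESC. It rose in EpiLC and in Sirt1KO ESC, and fell by 0.56 after the Otx2 knockdown. Hdac11, the only class IV member, rose in EpiLC (0.38 ± 0.07) from 3.95 ± 0.314 to 5.43 ± 0.102 FPKM and passed no test against wild-type ESC in the other groups.

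**Figure D2:**
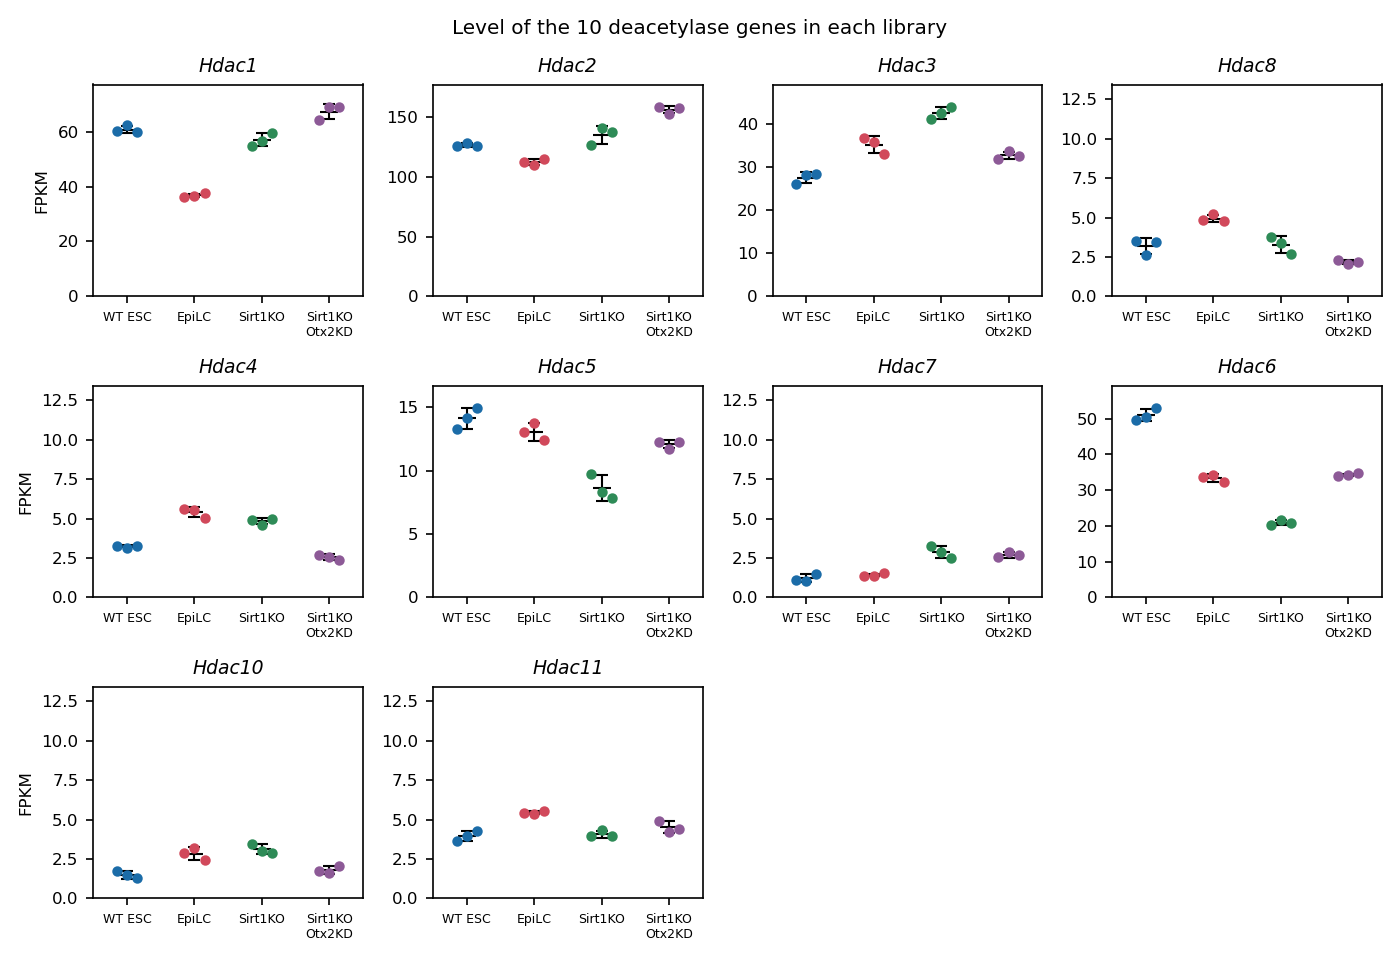
FPKM of the 10 deacetylase genes in each library (points), with the mean and SD of the 3 libraries per group (lines); all axes start at 0 and differ in scale. Hdac2 and Hdac1 sit highest, Hdac1 is lowest in EpiLC, and Hdac6 is lowest in Sirt1KO ESC.

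Of the 5 acetyltransferases, 2 rose and 2 fell in EpiLC, 1 and 3 in Sirt1KO ESC, 4 and 1 in Sirt1KO Otx2KD against Sirt1KO ESC, 2 and 1 against wild-type ESC, and 2 and 0 in EpiLC against Sirt1KO ESC, with medians of 0.02, -0.17, 0.28, 0.01 and 0.08. Called were 80%, 80%, 100%, 60% and 40% of these 5, against 74.6%, 65%, 62.6%, 53.9% and 69.1% of all loci. Ep300, the p300 coactivator that acetylates H3K27 at enhancers, was at 19.8, 19.2 and 19.2 FPKM in wild-type ESC, at 26.9, 30.1 and 27.0 in EpiLC, at 17.9, 16.7 and 16.9 in Sirt1KO ESC and at 25.3, 23.6 and 23.3 in Sirt1KO Otx2KD ESC. The groups did not overlap, with Sirt1KO ESC lowest and EpiLC highest. Ep300 rose by 0.51 ± 0.05 in EpiLC (adjusted p 7.51e-07, limma), fell by 0.17 in Sirt1KO ESC and was higher by 0.46 ± 0.05 after the Otx2 knockdown.

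Its paralog Crebbp was lower and followed another order, at 5.72, 6.99 and 6.65 FPKM in wild-type ESC, at 5.34, 5.62 and 4.92 in EpiLC, at 5.64, 5.57 and 5.97 in Sirt1KO ESC and at 9.57, 8.51 and 9.62 in Sirt1KO Otx2KD ESC. The Sirt1KO Otx2KD libraries lay above all others and the remaining groups overlapped in part. Crebbp rose by 0.60 ± 0.08 against Sirt1KO ESC (adjusted p 1.33e-05, limma) and by 0.46 ± 0.08 against wild-type ESC. In EpiLC its difference was -0.24 ± 0.08 (adjusted p 0.0117, limma) and missed the threshold at an adjusted p of 0.0587 when wild-type ESC replicate 2 was left out, and of 0.0519 when EpiLC replicate 3 was. With chromosome medians removed it was -0.10 with an adjusted p of 0.247 in limma.

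Kat2a, the Gcn5 acetyltransferase of the SAGA complex, was the most abundant of the 5 and was at 43.8, 47.5 and 49.6 FPKM in wild-type ESC, at 34.3, 34.2 and 32.1 in EpiLC, at 33.9, 30.3 and 31.1 in Sirt1KO ESC and at 38.0, 40.0 and 38.0 in Sirt1KO Otx2KD ESC. Wild-type ESC were highest, Sirt1KO Otx2KD ESC next, and the EpiLC and Sirt1KO libraries overlapped at the bottom. Kat2a fell by 0.47 in EpiLC and by 0.55 in Sirt1KO ESC. It lies on chromosome 11, where the median locus fell by 0.46 and 0.49 in those comparisons, and with chromosome medians removed its differences were 0.05 and -0.06 (adjusted p 0.387 and 0.388, limma). Its SAGA paralog Kat2b fell in Sirt1KO ESC (-0.28 ± 0.05) and stood at 24.0 ± 0.812 FPKM in EpiLC against 23.7 ± 1.62 in wild-type ESC. Kat5, the Tip60 acetyltransferase of the NuA4 complex, was at 22.4, 21.9 and 21.4 FPKM in wild-type ESC, at 26.1, 25.3 and 27.1 in EpiLC, at 27.2, 28.2 and 25.3 in Sirt1KO ESC and at 21.4, 24.0 and 20.9 in Sirt1KO Otx2KD ESC. EpiLC and Sirt1KO ESC overlapped above wild-type and Sirt1KO Otx2KD ESC, which also overlapped. Kat5 rose by 0.25 ± 0.06 in EpiLC and 0.29 ± 0.06 in Sirt1KO ESC and fell by 0.27 after the Otx2 knockdown.

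Of the 18 lysine methyltransferases, 10 rose in EpiLC and 1, Suv420h2, fell. In the other comparisons the counts were 5 and 4 in Sirt1KO ESC, 7 and 6 in Sirt1KO Otx2KD against Sirt1KO ESC, 9 and 5 in Sirt1KO Otx2KD against wild-type ESC, and 10 and 0 in EpiLC against Sirt1KO ESC. The medians were 0.18, -0.03, 0.07, 0.16 and 0.18. Called were 61.1%, 50%, 72.2%, 77.8% and 55.6% of these genes, against 74.6%, 65%, 62.6%, 53.9% and 69.1% of all loci. The share was below that of all loci in EpiLC and Sirt1KO ESC against wild-type ESC and in EpiLC against Sirt1KO ESC. It was above in the comparisons of Sirt1KO Otx2KD ESC. Setd7 showed the largest rise of all 54 genes and was at 2.27, 2.77 and 2.30 FPKM in wild-type ESC, at 11.9, 13.3 and 12.8 in EpiLC, at 4.58, 3.51 and 3.02 in Sirt1KO ESC and at 3.97, 3.91 and 4.09 in Sirt1KO Otx2KD ESC. The EpiLC libraries lay far above the rest, wild-type ESC were lowest and the knockout groups overlapped. Setd7 rose by 1.99 ± 0.10 in EpiLC (adjusted p 6.08e-10, limma), 5.17 times the mean FPKM of wild-type ESC. In Sirt1KO ESC the rise was 0.44 ± 0.10 (adjusted p 0.00212, limma), and EpiLC stood 1.55 ± 0.10 above Sirt1KO ESC.

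The other H3K4 methyltransferases are the catalytic subunits of COMPASS-type complexes. Setd1a, which writes promoter trimethylation, rose in Sirt1KO Otx2KD ESC against Sirt1KO ESC (0.31 ± 0.06) and against wild-type ESC (0.29 ± 0.06), and its level in EpiLC was 23.0 ± 0.847 FPKM against 21.2 ± 1.59 in wild-type ESC. Mll1 rose in EpiLC (0.47 ± 0.06) from 5.39 ± 0.159 to 7.86 ± 0.648 FPKM. Mll2 rose in Sirt1KO Otx2KD ESC, by 0.45 ± 0.07 against Sirt1KO ESC and 0.37 ± 0.07 against wild-type ESC. The symbols Mll1 and Mll2 have been used for more than 1 gene of the family, and the files' own symbols are kept.

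Mll3, a monomethylase of enhancers, was at 7.20, 7.29 and 6.57 FPKM in wild-type ESC, at 6.47, 6.78 and 6.60 in EpiLC, at 3.52, 3.63 and 3.56 in Sirt1KO ESC and at 6.37, 6.04 and 6.66 in Sirt1KO Otx2KD ESC. Sirt1KO ESC were low and the other groups overlapped. Mll3 fell by 0.81 in Sirt1KO ESC (adjusted p 5.8e-08, limma) and was 0.69 ± 0.06 higher after the Otx2 knockdown, where its difference from wild-type ESC was -0.12 ± 0.06 (adjusted p 0.109, limma). Mll5, placed with these genes by its symbol only and not as a subunit of such complexes, lay between 4.90 and 6.11 FPKM in all 12 libraries. It was called lower in Sirt1KO Otx2KD than in wild-type ESC (-0.16 ± 0.06, adjusted p 0.0369, limma), a call that several alternatives lost.

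H3K9 mono- and dimethylation is written by the partners Ehmt1 (GLP) and Ehmt2 (G9a). Ehmt1 was at 14.8, 14.0 and 14.9 FPKM in wild-type ESC, at 31.9, 30.8 and 31.2 in EpiLC, at 20.1, 19.1 and 18.3 in Sirt1KO ESC and at 13.6, 13.9 and 14.1 in Sirt1KO Otx2KD ESC. EpiLC were highest and Sirt1KO ESC next, and the other groups overlapped. Ehmt1 rose by 1.05 ± 0.05 in EpiLC (adjusted p 1.04e-10, limma) and by 0.37 ± 0.05 in Sirt1KO ESC, and fell by 0.44 after the Otx2 knockdown.

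Ehmt2 moved otherwise, at 29.1, 33.8 and 35.0 FPKM in wild-type ESC, at 33.9, 35.3 and 32.7 in EpiLC, at 29.2, 29.0 and 29.0 in Sirt1KO ESC and at 42.5, 43.7 and 40.9 in Sirt1KO Otx2KD ESC. The Sirt1KO Otx2KD libraries lay above all others, and neighbouring groups below overlapped. Ehmt2 rose by 0.53 ± 0.06 after the Otx2 knockdown (adjusted p 3.51e-06, limma), the opposite direction to its partner, while in EpiLC its difference from wild-type ESC was 0.06 ± 0.06 (adjusted p 0.370, limma).

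H3K9 trimethylation at heterochromatin is written by Suv39h1 and Suv39h2. The X-linked Suv39h1 was at 18.8, 18.9 and 17.6 FPKM in wild-type ESC, at 23.1, 22.2 and 22.0 in EpiLC, at 14.3, 13.9 and 13.4 in Sirt1KO ESC and at 9.09, 9.89 and 11.5 in Sirt1KO Otx2KD ESC. No groups overlapped, and the order ran from Sirt1KO Otx2KD through Sirt1KO and wild-type ESC to EpiLC. Suv39h1 fell by 0.38 in Sirt1KO ESC and by a further 0.42 after the Otx2 knockdown, so that it stood 0.81 on the log2 scale below wild-type ESC (adjusted p 3.57e-07, limma). In EpiLC it was 0.27 ± 0.07 above wild-type ESC, and 0.13 with the median of chromosome X removed (adjusted p 0.0839, limma).

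Suv39h2 was at 13.9, 13.6 and 13.6 FPKM in wild-type ESC, at 17.1, 18.6 and 18.4 in EpiLC, at 13.7, 13.8 and 13.3 in Sirt1KO ESC and at 10.8, 11.6 and 10.9 in Sirt1KO Otx2KD ESC. Its EpiLC libraries were highest and its Sirt1KO Otx2KD libraries lowest, with wild-type and Sirt1KO ESC overlapping between. Suv39h2 rose by 0.38 ± 0.05 in EpiLC and fell by 0.27 after the Otx2 knockdown. In Sirt1KO ESC its difference was -0.01 ± 0.05 (adjusted p 0.893, limma).

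H4K20 is methylated once by Setd8 and further by Suv420h1 and Suv420h2. Suv420h2 had the highest mean level of the lysine methyltransferases and was at 40.4, 45.4 and 47.2 FPKM in wild-type ESC, at 33.2, 35.4 and 32.0 in EpiLC, at 39.8, 35.1 and 33.9 in Sirt1KO ESC and at 52.8, 51.4 and 48.8 in Sirt1KO Otx2KD ESC. EpiLC and Sirt1KO ESC overlapped at the bottom, with wild-type ESC above and Sirt1KO Otx2KD ESC highest. Suv420h2 fell by 0.39 in EpiLC and by 0.28 in Sirt1KO ESC and rose by 0.48 ± 0.07 after the Otx2 knockdown (adjusted p 2.72e-05, limma). Setd8 rose after the Otx2 knockdown (0.27 ± 0.06) and lay between 33.0 and 43.7 FPKM over all libraries. Suv420h1 passed no test, with differences from -0.01 to 0.15 over the 5 comparisons.

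Of the other SET-domain genes, Setd5 was at 24.0, 25.6 and 24.6 FPKM in wild-type ESC, at 42.0, 44.0 and 40.5 in EpiLC, at 42.4, 44.3 and 44.8 in Sirt1KO ESC and at 41.0, 39.4 and 41.5 in Sirt1KO Otx2KD ESC. Wild-type ESC were lowest and the other 3 groups overlapped with their neighbours. Setd5 rose by 0.74 ± 0.04 in EpiLC, 0.80 ± 0.04 in Sirt1KO ESC and 0.69 ± 0.04 in Sirt1KO Otx2KD ESC (adjusted p 1.82e-09, 1.83e-09 and 1.98e-08, limma), each against wild-type ESC. Setd2, the H3K36 trimethylase, rose in EpiLC by 0.18 ± 0.05 and lay between 21.1 and 26.1 FPKM.

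Setd4 was at 5.24, 5.24 and 5.88 FPKM in wild-type ESC, at 6.96, 7.30 and 6.45 in EpiLC, at 6.85, 7.29 and 7.36 in Sirt1KO ESC and at 5.00, 4.37 and 4.30 in Sirt1KO Otx2KD ESC. Sirt1KO Otx2KD ESC were lowest, followed by wild-type ESC, and EpiLC and Sirt1KO ESC overlapped above them. Setd4 rose by 0.34 ± 0.07 in Sirt1KO ESC and fell by 0.56 after the Otx2 knockdown. Setd6, a methyltransferase of RelA on chromosome 8, was called higher in EpiLC (0.36 ± 0.05), but its difference was -0.04 with the chromosome median removed. Setd3, a methyltransferase of actin histidine, passed no test and lay between 16.9 and 19.6 FPKM.

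**Figure D3:**
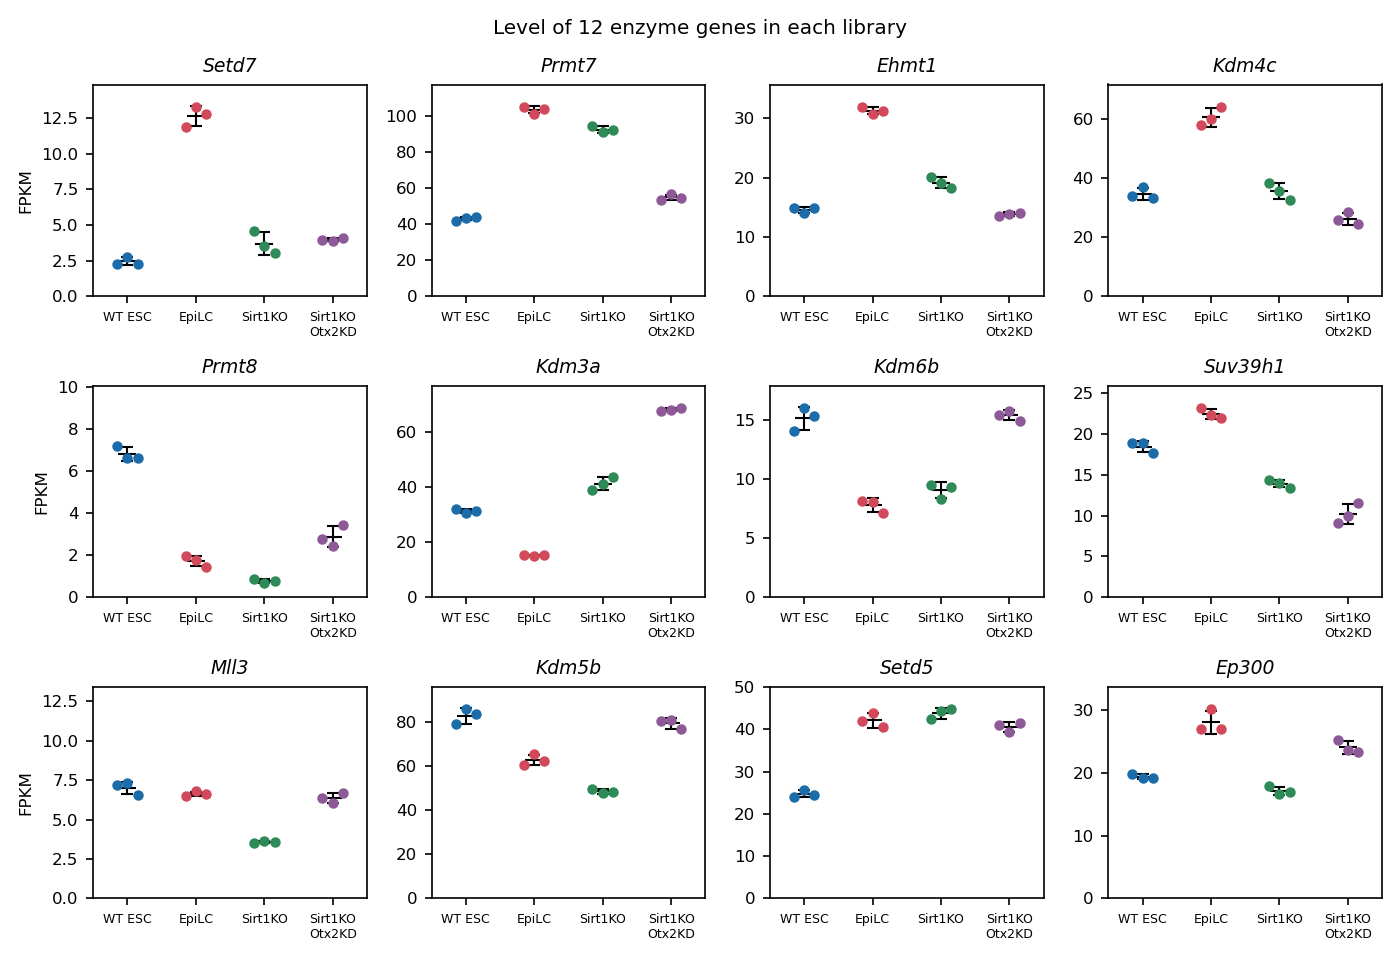
FPKM of 12 enzyme genes in each library (points), with the mean and SD of the 3 libraries per group (lines); all axes start at 0 and differ in scale. Setd7 and Ehmt1 are highest in EpiLC, Kdm3a is highest in Sirt1KO Otx2KD ESC and lowest in EpiLC, and Prmt8 is lowest in Sirt1KO ESC.

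Of the 14 demethylases, 7 rose and 5 fell in EpiLC, 4 and 7 in Sirt1KO ESC, 9 and 2 in Sirt1KO Otx2KD against Sirt1KO ESC, 8 and 2 against wild-type ESC, and 9 and 3 in EpiLC against Sirt1KO ESC, with medians of 0.05, -0.14, 0.17, 0.16 and 0.20. Called were 85.7%, 78.6%, 78.6%, 71.4% and 85.7% of the 14, against 74.6%, 65%, 62.6%, 53.9% and 69.1% of all loci. The H3K9 eraser Kdm3a had the widest range among them, at 32.3, 30.7 and 31.3 FPKM in wild-type ESC, at 15.2, 15.0 and 15.5 in EpiLC, at 39.1, 41.3 and 43.6 in Sirt1KO ESC and at 67.5, 68.1 and 68.7 in Sirt1KO Otx2KD ESC. No groups overlapped, and the order ran from EpiLC through wild-type and Sirt1KO ESC to Sirt1KO Otx2KD ESC. Kdm3a fell by 1.00 in EpiLC (SE 0.04, adjusted p 7.36e-11, limma), rose by 0.38 ± 0.04 in Sirt1KO ESC, and rose by a further 0.71 ± 0.04 after the Otx2 knockdown. EpiLC stood 1.38 on the log2 scale below Sirt1KO ESC.

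Its paralog Kdm3b had the same order of groups in a narrower range, from 15.8 ± 0.513 FPKM in EpiLC to 22.6 ± 0.314 in Sirt1KO Otx2KD ESC, and also fell in EpiLC (-0.20 ± 0.05). Kdm4c, which removes H3K9 trimethylation, was at 33.8, 36.9 and 33.3 FPKM in wild-type ESC, at 57.8, 59.9 and 64.0 in EpiLC, at 38.2, 35.6 and 32.7 in Sirt1KO ESC and at 25.8, 28.4 and 24.3 in Sirt1KO Otx2KD ESC. EpiLC were highest, Sirt1KO Otx2KD ESC lowest, and wild-type and Sirt1KO ESC overlapped. Kdm4c rose by 0.79 ± 0.07 in EpiLC (adjusted p 1.05e-07, limma) and fell by 0.43 after the Otx2 knockdown. The erasers of H3K9 methylation thus did not move together in EpiLC, where Kdm3a and Kdm3b fell and Kdm4c rose.

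Kdm4a, which has the same substrate, rose in EpiLC (0.34 ± 0.05), fell in Sirt1KO ESC (-0.29 ± 0.05) and rose after the Otx2 knockdown (0.45 ± 0.05). Kdm4b fell in EpiLC (-0.36 ± 0.06) and in Sirt1KO ESC (-0.53 ± 0.06), from 12.0 ± 0.923 FPKM in wild-type ESC to 9.12 ± 0.226 and 8.06 ± 0.429. The H3K36 erasers Kdm2a and Kdm2b rose in EpiLC, by 0.42 ± 0.05 and 0.28 ± 0.06. Kdm2b, a subunit of a Polycomb complex at CpG islands, also rose by 0.60 ± 0.06 after the Otx2 knockdown.

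The H3K27 erasers are Kdm6a (Utx) on chromosome X and Kdm6b (Jmjd3) on chromosome 11. Kdm6b was at 14.0, 16.0 and 15.3 FPKM in wild-type ESC, at 8.16, 8.03 and 7.09 in EpiLC, at 9.52, 8.31 and 9.32 in Sirt1KO ESC and at 15.4, 15.8 and 14.9 in Sirt1KO Otx2KD ESC. EpiLC and Sirt1KO ESC were low, without overlap between them, and wild-type and Sirt1KO Otx2KD ESC overlapped near the top. Kdm6b fell by 0.88 in EpiLC and by 0.68 in Sirt1KO ESC (adjusted p 3.78e-08 and 9.11e-07, limma), and rose by 0.70 ± 0.07 after the Otx2 knockdown. With chromosome medians removed the first 2 differences were -0.36 and -0.19.

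Kdm6a was at 19.9, 21.5 and 19.9 FPKM in wild-type ESC, at 18.4, 19.8 and 19.9 in EpiLC, at 15.5, 17.3 and 16.2 in Sirt1KO ESC and at 24.0, 22.4 and 22.9 in Sirt1KO Otx2KD ESC. Sirt1KO ESC were lowest and Sirt1KO Otx2KD ESC highest, without overlap with the others, while wild-type ESC and EpiLC met at 19.9 FPKM. Kdm6a fell by 0.31 in Sirt1KO ESC and rose by 0.48 ± 0.05 after the Otx2 knockdown. Its difference in EpiLC was -0.07 ± 0.05 (adjusted p 0.228, limma).

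Among the Kdm5 genes, whose products remove H3K4 methylation, Kdm5b had the highest mean level and was at 78.9, 85.8 and 83.5 FPKM in wild-type ESC, at 60.6, 65.4 and 62.5 in EpiLC, at 49.6, 47.7 and 48.2 in Sirt1KO ESC and at 80.5, 81.1 and 76.7 in Sirt1KO Otx2KD ESC. Wild-type and Sirt1KO Otx2KD ESC overlapped at the top, EpiLC lay below them and Sirt1KO ESC lowest. Kdm5b fell by 0.76 in Sirt1KO ESC (adjusted p 2.07e-09, limma) and by 0.39 in EpiLC, and after the Otx2 knockdown stood -0.06 ± 0.04 from wild-type ESC (adjusted p 0.262, limma). Kdm5a rose in EpiLC (0.53 ± 0.06) and in Sirt1KO ESC (0.46 ± 0.06), so these paralogs went in opposite directions against wild-type ESC.

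The X-linked Kdm5c was at 25.1, 25.4 and 26.2 FPKM in wild-type ESC, at 35.3, 35.7 and 36.8 in EpiLC, at 27.7, 28.4 and 28.3 in Sirt1KO ESC and at 31.1, 28.9 and 29.9 in Sirt1KO Otx2KD ESC. Wild-type ESC were lowest and EpiLC highest, without overlap between groups. Kdm5c rose by 0.48 ± 0.04 in EpiLC and 0.22 ± 0.04 in Sirt1KO Otx2KD ESC against wild-type ESC. Its Y-linked homolog Kdm5d did not reach the level limit, at 0.976, 0.609 and 0.721 FPKM in wild-type ESC, at 0.227, 0.169 and 0.127 in EpiLC, at 0.0179, 0.0157 and 0 in Sirt1KO ESC and at 0.0286, 0.0489 and 0.0348 in Sirt1KO Otx2KD ESC. The knockout libraries were close to 0, and wild-type ESC were highest. Uty, the Y-linked homolog of Kdm6a and no member by name, was likewise at 4.99 FPKM on average in wild-type ESC, 1.27 in EpiLC, 0.00566 in Sirt1KO ESC and 0.0563 in Sirt1KO Otx2KD ESC.

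Kdm1a (Lsd1), the CoREST subunit that removes H3K4 mono- and dimethylation, had the highest mean level of the demethylases and was at 66.2, 73.9 and 72.4 FPKM in wild-type ESC, at 80.6, 80.7 and 78.1 in EpiLC, at 73.4, 69.8 and 72.8 in Sirt1KO ESC and at 78.9, 76.3 and 80.1 in Sirt1KO Otx2KD ESC. EpiLC and Sirt1KO Otx2KD ESC overlapped above wild-type and Sirt1KO ESC, which also overlapped. Kdm1a rose by 0.17 ± 0.04 in EpiLC and by 0.15 ± 0.04 in Sirt1KO Otx2KD ESC against wild-type ESC. Its paralog Kdm1b lay between 6.00 and 7.57 FPKM, with differences from -0.18 to 0.08.

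Of the 7 arginine methyltransferases, 3 rose and 2 fell in EpiLC, 5 and 1 in Sirt1KO ESC, 1 and 4 in Sirt1KO Otx2KD against Sirt1KO ESC, 4 and 1 against wild-type ESC, and 3 and 2 in EpiLC against Sirt1KO ESC, with medians of 0.0023, 0.28, -0.17, 0.16 and -0.04. Called were 71.4%, 85.7%, 71.4%, 71.4% and 71.4% of these 7, against 74.6%, 65%, 62.6%, 53.9% and 69.1% of all loci. Prmt1, the main writer of asymmetric dimethylarginine, had the highest level of all 54 genes, at 246, 251 and 249 FPKM in wild-type ESC, at 321, 323 and 319.5 in EpiLC, at 305, 298 and 299 in Sirt1KO ESC and at 277, 270.4 and 285 in Sirt1KO Otx2KD ESC. No groups overlapped, with wild-type ESC lowest and EpiLC highest. Prmt1 rose by 0.37 ± 0.03 in EpiLC (adjusted p 1.53e-08, limma) and by 0.27 ± 0.03 in Sirt1KO ESC. Prmt5, the main writer of symmetric dimethylarginine, was at 101, 94.0 and 98.5 FPKM in wild-type ESC, at 96.4, 95.5 and 95.4 in EpiLC, at 98.0, 97.9 and 99.1 in Sirt1KO ESC and at 101, 99.7 and 97.3 in Sirt1KO Otx2KD ESC. All 4 groups overlapped with their neighbours in level, and its differences ran from -0.04 to 0.02 with none called.

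Prmt7 was at 42.0, 43.4 and 44.0 FPKM in wild-type ESC, at 105, 101 and 104 in EpiLC, at 94.2, 90.9 and 92.0 in Sirt1KO ESC and at 53.5, 56.5 and 54.2 in Sirt1KO Otx2KD ESC. No groups overlapped, and EpiLC and Sirt1KO ESC stood far above Sirt1KO Otx2KD and wild-type ESC. Prmt7 rose by 1.24 ± 0.03 in EpiLC and by 1.08 ± 0.03 in Sirt1KO ESC, and fell by 0.74 after the Otx2 knockdown (adjusted p 1.35e-12, 1.19e-11 and 7.19e-10, limma). Its chromosome 8 had a median log2 difference of 0.40 in EpiLC and 0.46 in Sirt1KO ESC, and with chromosome medians removed the differences of Prmt7 were 0.84 and 0.68. Against wild-type ESC, its value in Sirt1KO Otx2KD ESC was 0.34 ± 0.03, and -0.04 with chromosome medians removed (adjusted p 0.336, limma).

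Prmt8 was at 7.20, 6.62 and 6.65 FPKM in wild-type ESC, at 1.95, 1.78 and 1.46 in EpiLC, at 0.854, 0.673 and 0.772 in Sirt1KO ESC and at 2.76, 2.45 and 3.44 in Sirt1KO Otx2KD ESC. No groups overlapped, with wild-type ESC highest, Sirt1KO Otx2KD ESC next, EpiLC below and Sirt1KO ESC lowest. Prmt8 fell by 1.52 in EpiLC and by 2.15 in Sirt1KO ESC (SE 0.10 and 0.10; adjusted p 7.81e-09 and 5.02e-10, limma). Wild-type ESC held 8.90 times the mean FPKM of Sirt1KO ESC. After the Otx2 knockdown it rose by 1.13 ± 0.10 against Sirt1KO ESC and still stood 1.02 below wild-type ESC. It reached 1 FPKM in 9 libraries, which is why it was retained.

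Prmt3, which methylates the ribosomal protein Rps2, rose in Sirt1KO ESC (0.28 ± 0.05) and stood at 40.9 ± 0.526 FPKM in EpiLC against 40.9 ± 2.44 in wild-type ESC. Prmt6, the writer of H3R2 asymmetric dimethylation, rose in Sirt1KO ESC by 0.40 ± 0.06 and stood 0.57 lower on the log2 scale in EpiLC than in Sirt1KO ESC. Prmt10, on chromosome 8 as Prmt7, was called higher in EpiLC (0.36 ± 0.08) and Sirt1KO ESC (0.52 ± 0.08), but its differences were -0.04 and 0.12 with chromosome medians removed. Prmt2 was read only as part of a locus merged with the microRNA gene Mir678 and was not used.

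**Figure D4:**
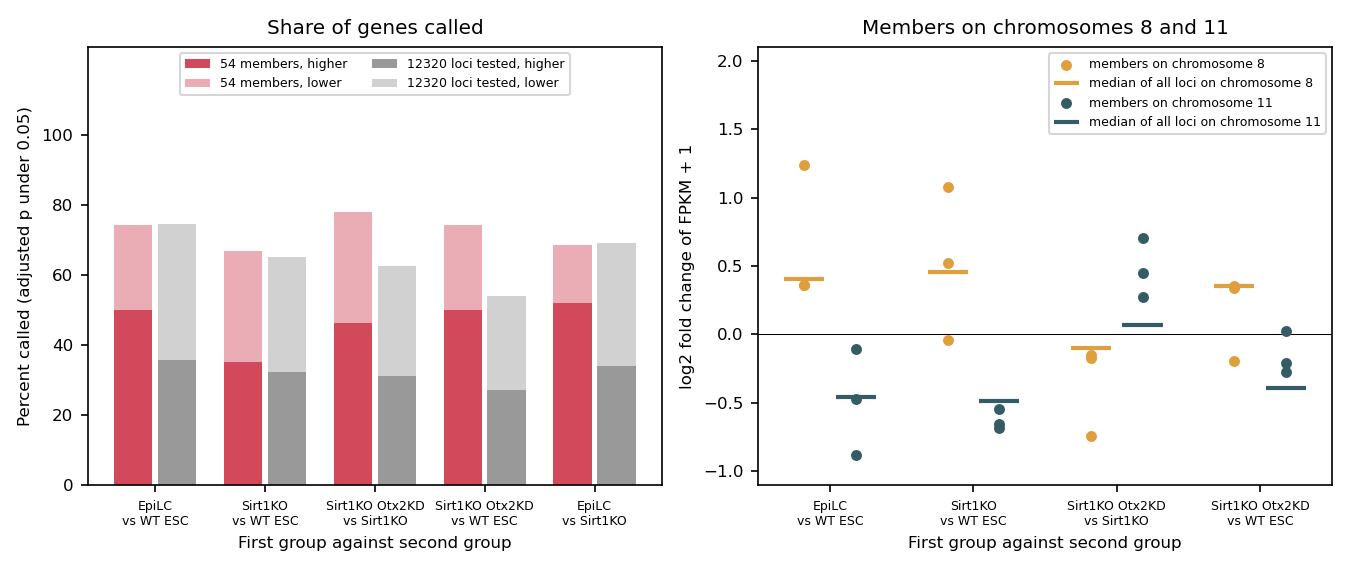
Left, percent of genes called higher (full colour) and lower (pale, stacked on top) in each comparison, for the 54 enzyme genes and for all 12320 tested loci. Right, log2 difference of the enzyme genes on chromosomes 8 and 11 (points) beside the median of all tested loci of that chromosome. The enzyme share called is above that of all loci mainly in the comparisons with Sirt1KO Otx2KD ESC (77.8% against 62.6% and 74.1% against 53.9%). For calls of at least 0.5 in size on the log2 scale, the shares there are 24.1% against 21.9% and 13% against 16.9%.

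The chromosomes bear on the comparisons with wild-type ESC. The median of the 680 tested loci on chromosome 8 was 0.40 in EpiLC, 0.46 in Sirt1KO ESC and 0.36 in Sirt1KO Otx2KD ESC, and that of the 1039 on chromosome 11 was -0.46, -0.49 and -0.39. Prmt7, Prmt10 and Setd6 lie on chromosome 8, and Hdac5, Kat2a and Kdm6b on chromosome 11. In EpiLC against Sirt1KO ESC both medians were near 0 (-0.05 and 0.02). Off those chromosomes, 35 of 48 enzyme genes were called in EpiLC against wild-type ESC and 31 in Sirt1KO ESC. These are 72.9% and 64.6% of the enzymes, against 73.3% and 62.3% of all tested loci off those chromosomes, and so near the background. In Sirt1KO Otx2KD against wild-type ESC, 35 of the 48 were called, 72.9% against 50.3% of those loci. Smaller medians were seen on chromosome 6 (0.15 in Sirt1KO ESC and 0.19 in Sirt1KO Otx2KD ESC) and X (0.10 in EpiLC and -0.13 in Sirt1KO Otx2KD ESC). Each of these holds 5 of the enzyme genes. The cause of these chromosome-wide shifts was not tested.

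The 3 genes that match by name but are not among the 54 fell under the limit of 1 FPKM in 3 libraries. Besides Kdm5d, these were Hdac9, which reached at most 1.11 FPKM, and the H3K9 demethylase gene Kdm4d, at most 0.0402 FPKM. Hdac7 and Prmt8, which reached 1 FPKM in 12 and 9 libraries, had lowest values of 1.05 and 0.673 FPKM.

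Most of these calls held when 1 library was left out. Of the called enzyme genes, 32 of 40 in EpiLC against wild-type ESC, 29 of 36 in Sirt1KO against wild-type ESC, 36 of 42 in Sirt1KO Otx2KD against Sirt1KO ESC, 28 of 40 in Sirt1KO Otx2KD against wild-type ESC and 33 of 37 in EpiLC against Sirt1KO ESC passed under every alternative tried. The calls lost with 1 library left out were 3, 3, 5, 7 and 3 in the same order of comparisons. In EpiLC against wild-type ESC they were Crebbp (without wild-type ESC replicate 2 or EpiLC replicate 3, adjusted p 0.0519 to 0.0587), Prmt6 (without EpiLC replicate 3, adjusted p 0.0536) and Setd8 (without wild-type ESC replicate 1, adjusted p 0.0526). Sirt1KO against wild-type ESC lost Ehmt2 (without wild-type ESC replicate 2 or 3 or Sirt1KO ESC replicate 1 or 2 or 3, adjusted p 0.0554 to 0.148), Kdm1b (without wild-type ESC replicate 3 or Sirt1KO ESC replicate 3, adjusted p 0.0522 to 0.0857) and Setd2 (without wild-type ESC replicate 1 or 2 or 3 or Sirt1KO ESC replicate 2 or 3, adjusted p 0.0517 to 0.169). Sirt1KO Otx2KD against Sirt1KO ESC lost Kdm1a (without Sirt1KO ESC replicate 2 or Sirt1KO Otx2KD ESC replicate 1 or 3, adjusted p 0.0593 to 0.0925), Kdm3b (without Sirt1KO ESC replicate 1 or Sirt1KO Otx2KD ESC replicate 1, adjusted p 0.0581 to 0.0812), Kdm5a (without Sirt1KO ESC replicate 2 or Sirt1KO Otx2KD ESC replicate 2, adjusted p 0.0582 to 0.0637), Setd5 (without Sirt1KO ESC replicate 2 or 3 or Sirt1KO Otx2KD ESC replicate 1 or 2 or 3, adjusted p 0.0516 to 0.146) and Setd6 (without Sirt1KO ESC replicate 2 or Sirt1KO Otx2KD ESC replicate 2 or 3, adjusted p 0.0654 to 0.0809). Against wild-type ESC, Sirt1KO Otx2KD ESC lost Hdac5 (without wild-type ESC replicate 2 or 3 or Sirt1KO Otx2KD ESC replicate 2, adjusted p 0.0607 to 0.102), Kdm6a (without wild-type ESC replicate 1 or 3 or Sirt1KO Otx2KD ESC replicate 1, adjusted p 0.0515 to 0.0648), Mll5 (without wild-type ESC replicate 1 or 2 or Sirt1KO Otx2KD ESC replicate 2 or 3, adjusted p 0.0635 to 0.131), Prmt6 (without wild-type ESC replicate 1 or Sirt1KO Otx2KD ESC replicate 2, adjusted p 0.0503 to 0.0679), Setd2 (without wild-type ESC replicate 3 or Sirt1KO Otx2KD ESC replicate 3, adjusted p 0.0646 to 0.0656), Setd4 (without wild-type ESC replicate 3 or Sirt1KO Otx2KD ESC replicate 2 or 3, adjusted p 0.0699 to 0.0934) and Suv420h2 (without wild-type ESC replicate 1 or Sirt1KO Otx2KD ESC replicate 1 or 2, adjusted p 0.0551 to 0.105). EpiLC against Sirt1KO ESC lost Kdm4b (without EpiLC replicate 1 or 2 or Sirt1KO ESC replicate 3, adjusted p 0.0590 to 0.127), Kdm6b (without EpiLC replicate 3 or Sirt1KO ESC replicate 1 or 3, adjusted p 0.0616 to 0.0921) and Setd1a (without EpiLC replicate 1 or 2 or Sirt1KO ESC replicate 2 or 3, adjusted p 0.0750 to 0.152). With chromosome medians removed, 6, 6, 2, 8 and 1 calls were lost or turned. Against wild-type ESC, EpiLC lost Crebbp, Kat2a, Prmt6, Prmt10, Setd6 and Suv39h1. Sirt1KO ESC lost Ehmt2, Hdac5, Kat2a, Kdm2b, Prmt10 and Setd2. Sirt1KO Otx2KD ESC lost Hdac5, Hdac8, Kat2a, Kdm5a, Mll5, Prmt7, Prmt10 and Setd2. Against Sirt1KO ESC, Sirt1KO Otx2KD ESC lost Hdac2 and Kdm1a, and EpiLC lost Kdm6a.

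Genes of the complexes in which these enzymes act were listed by name, and the genes named here are among the 3 with the largest test statistic of their list in that comparison. Each list's share called is given for EpiLC, Sirt1KO ESC and the knockdown in that order, and the same shares of all loci were 74.6%, 65% and 62.6%. Of 22 tested subunits of the Hdac1 and Hdac2 complexes, 8 rose and 5 fell in EpiLC, 4 and 8 in Sirt1KO ESC, and 10 and 1 after the Otx2 knockdown in Sirt1KO ESC, with median log2 differences of 0.09, -0.04 and 0.13 and shares called of 59.1%, 54.5% and 50%. Rbbp7, a histone-binding subunit of the Sin3 and NuRD complexes, rose in EpiLC (0.92 ± 0.04) and Sirt1KO ESC (0.62 ± 0.04) and fell after the knockdown (-0.42 ± 0.04). The NuRD helicase gene Chd3, on chromosome 11, fell in EpiLC (-1.23 ± 0.07), while that of its paralog Chd4 rose (0.71 ± 0.05). The CoREST gene Rcor2 fell in Sirt1KO ESC (-1.33 ± 0.07).

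Of 11 subunits of the Setd1 and Mll complexes, not all of them common to every such complex, 4 rose and 5 fell in EpiLC. The counts were 5 and 2 in Sirt1KO ESC, and 6 and 2 after the Otx2 knockdown (medians -0.04, 0.07 and 0.13, called 81.8%, 63.6% and 72.7%). Psip1, which tethers Mll1 to chromatin, rose in EpiLC (0.79 ± 0.03), and the core subunit gene Wdr5 fell (-0.54 ± 0.04). Dpy30, another core subunit, rose in Sirt1KO ESC (0.33 ± 0.04), and Ash2l rose after the knockdown (0.28 ± 0.03). Of 8 Hdac3 and class IIa partners, 2 rose and 3 fell in EpiLC, 2 and 5 in Sirt1KO ESC, and 4 and 2 after the knockdown (medians -0.02, -0.38 and 0.05, called 62.5%, 87.5% and 75%). Mef2b, a class IIa partner on chromosome 8, rose in EpiLC (2.09 ± 0.14), and Gps2, a subunit of the NCoR complex on chromosome 11, fell (-1.19 ± 0.09). The chromosome medians there were 0.40 and -0.46.

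Of 26 subunits of acetyltransferase complexes, 7 rose and 11 fell in EpiLC, 9 and 9 in Sirt1KO ESC, and 10 and 5 after the Otx2 knockdown (medians -0.09, 0.06 and 0.08, called 69.2%, 69.2% and 57.7%). Brpf3, a scaffold of the MYST-family complexes, fell in EpiLC (-1.96 ± 0.06) and Sirt1KO ESC (-1.33 ± 0.06), and the SAGA adaptor gene Tada3 fell in EpiLC (-1.18 ± 0.05). Of 18 acetyltransferases and demethylases with other symbols, 7 rose and 9 fell in EpiLC, 3 and 9 in Sirt1KO ESC, and 8 and 3 after the knockdown (medians -0.09, -0.21 and 0.08, called 88.9%, 66.7% and 61.1%). Myst4 fell in EpiLC (-1.32 ± 0.05), and Myst2, the gene of the Hbo1 acetyltransferase, fell in EpiLC (-0.63 ± 0.04) and Sirt1KO ESC (-0.95 ± 0.04). Myst2 lies on chromosome 11, whose medians were -0.46 and -0.49.

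Of 15 methyltransferases with other symbols, 7 rose and 4 fell in EpiLC, 6 and 6 in Sirt1KO ESC, and 6 and 4 after the knockdown (medians 0.16, 0.03 and 0.07, called 73.3%, 80% and 66.7%). Smyd2, a methyltransferase mainly of non-histone proteins, fell in EpiLC (-1.28 ± 0.07) and Sirt1KO ESC (-1.06 ± 0.07), whereas Whsc1 (Nsd2), which dimethylates H3K36, rose in both (0.81 ± 0.06 and 0.60 ± 0.06). Of 20 readers of acetyl-lysine and methyl-lysine, 9 rose and 6 fell in EpiLC, 8 and 8 in Sirt1KO ESC, and 10 and 8 after the knockdown (medians 0.01, 0.07 and 0.11, called 75%, 80% and 90%). Phf6, an X-linked PHD-finger gene, rose in EpiLC (1.88 ± 0.06) and fell after the knockdown (-1.20 ± 0.06), and the BET bromodomain gene Brd3 rose in EpiLC (0.78 ± 0.04).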

How the data were processed

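RNA-seq of 12 libraries was analysed from the deposited files, which hold FPKM values for 27914 loci per library. Per the submitters' processing notes, the authors used TopHat, Cufflinks and Cuffdiff with the mm9 build; no versions are given there. FPKM are normalized to length and library, so counts and absolute depth are not given, and relative depth was read from the smallest steps of the values. Libraries were grouped by their labels. Named loci at 1 FPKM or more in at least 3 libraries (12320) were tested on log2(FPKM + 1) with limma 3.58.1 in R 4.3.3 (robust empirical Bayes with a mean-variance trend, all 4 groups in 1 fit), with Benjamini-Hochberg adjustment over all loci; the script was tested on simulated data. Values per library are given for the 3 highest and 3 lowest called members of each comparison, the most abundant of each role and a list of well-known enzymes. Members and lists were chosen with earlier results of these data known. Alternatives changed the pseudocount, filter, scaling, chromosome centring, groups fitted, variance model, replicate block and libraries. Promoter windows were matched to RefSeq on GRCm38.p6 by symbol, with 1 window per gene at the annotated start furthest upstream, and mm9 coordinates are those of the files.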

Additional observations from a re-analysis of the deposited data

How the results depend on the processing

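The numbers of enzyme genes called higher and lower in the 5 comparisons stayed within 1.5 times the reported counts under every alternative tried. Of 2730 values of called genes under the alternatives, 2627 kept their direction and their call, 96 kept the direction only and 7 turned. Uncalled differences were followed only for 18 pairs of a gene and a comparison, those of genes named by rule, out of 75, and of their 252 values 226 stayed as they were, 11 passed the threshold and 15 turned. With chromosome medians removed, values turned to 0.0529 (Kat2a), -0.0404 (Prmt10) and -0.0383 (Setd6) in EpiLC, 0.0827 (Suv39h2) in Sirt1KO ESC, 0.142 (Kat2a), 0.207 (Hdac5), -0.106 (Kat5), -0.0308 (Prmt10) and -0.0445 (Prmt7) in Sirt1KO Otx2KD ESC, all against wild-type ESC, and 0.0532 (Crebbp) in EpiLC against Sirt1KO ESC. Of these, Kat2a and Hdac5 passed the threshold in the opposite direction (adjusted p 0.0392 and 0.0204, limma). Under quantile normalization, values turned to 0.0759 (Prmt5) and 0.0111 (Kdm6a) in EpiLC, 0.0341 (Suv39h2) in Sirt1KO ESC and 0.0743 (Prmt5) in EpiLC against Sirt1KO ESC. With 1 library left out, some uncalled values near 0 turned: Ehmt2 in EpiLC ranged from -0.0187 to 0.111, and in Sirt1KO ESC Prmt5 ranged from -0.0196 to 0.0306, Suv39h2 from -0.0173 to 0.00475 and Kdm1a from -0.0226 to 0.0560. In Sirt1KO Otx2KD against wild-type ESC, Prmt5 ranged from -0.00698 to 0.0432 and Kat5 from -0.0475 to 0.0493. The cause was not tested. The calls of Hdac2 and Prmt6 in EpiLC and of Ehmt2 in Sirt1KO ESC were lost under quantile normalization.

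The labels number the libraries of each group 1 to 3, and no pairing by number was seen over all groups. Same-numbered libraries correlated at -0.11 to 0.17 in their deviations from the group means, 2 of 18 pairs over 0.1. Others correlated at -0.18 to 0.20, and 3 of 12 libraries correlated best with their own number. The 2 pairs over 0.1 were both of wild-type ESC and EpiLC (replicate 2 at 0.17, replicate 3 at 0.10), where replicate 1 was at -0.03. With 3 libraries per group these values cannot settle whether the numbers pair cultures. With a replicate block, 27 enzyme genes were higher and 13 lower in EpiLC, 18 and 17 in Sirt1KO ESC, 25 and 16 in Sirt1KO Otx2KD against Sirt1KO ESC, 27 and 12 against wild-type ESC, and 26 and 9 in EpiLC against Sirt1KO ESC. FPKM hold no counts, so genes near 1 FPKM, such as Prmt8, Hdac7 and Hdac10, are less precise to an extent that was not computed.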
